A study of Homo sapiens with 10 samples.

Results

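The genes HNF4A, FOXA1, FOXA2, FOXA3, ONECUT1, NR1H4, NR5A2 and PROX1 encode transcription factors that specify the hepatocyte, and they were taken by name from the count table, where they are 8 of 32738 genes. Each of the 8 was kept by the filter against low counts, as were 12733 genes in all. They were measured in HepG2 cells, a human hepatoma line that keeps many hepatocyte functions, in 5 libraries of untreated cells kept in growth medium for 17 h and in 5 libraries of cells given 2 µg/ml tunicamycin for the same 17 h. Tunicamycin blocks N-linked glycosylation and so loads the endoplasmic reticulum (ER) with unfolded glycoproteins. The libraries hold reads from the 3′ ends of mRNAs, so they do not separate the isoforms made from the alternative promoters of HNF4A. The 5 experiments were done on separate days. Both groups are 1 established tumour-derived line, in which hepatocyte genes need not be set as they are in liver. No gene was deleted or added in either group.

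Hepatocyte identity is held by a small set of factors that bind each other's genes and the same liver enhancers. The FOXA proteins are forkhead pioneer factors that can bind closed chromatin, and HNF4A, a nuclear receptor, drives genes of lipoproteins, clotting factors and metabolism. ONECUT1 (HNF6) acts early in liver and bile duct development, NR1H4 is the bile acid receptor FXR, NR5A2 (LRH-1) supports bile acid and cholesterol genes, and PROX1 is a homeobox factor known as a corepressor of HNF4A and NR5A2.

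Of the 8 factors, FOXA2 rose and PROX1 fell with tunicamycin, and the remaining 6 did not pass the test. FOXA2 was 40.4% higher and PROX1 fell by 28.5%, so neither change reached 2-fold. HNF4A was higher in 5 of 5 replicate pairs and lay close to the threshold. With a Benjamini-Hochberg threshold of 0.05 on edgeR's quasi-likelihood test, 1 of 8 was higher against 17.6% of all genes tested, and 1 of 8 was lower against 16.6%. The conditions did not overlap for 2 of 8, FOXA2 and PROX1, against 23.5% of all genes tested. The members' shares were thus near those of the whole table. The median log2 fold change was 0.10 over the 8 factors and -0.0033 over all genes tested. Fewer cells expressing a gene and less RNA of it per cell cannot be told apart in these bulk libraries.

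**Figure D1:**
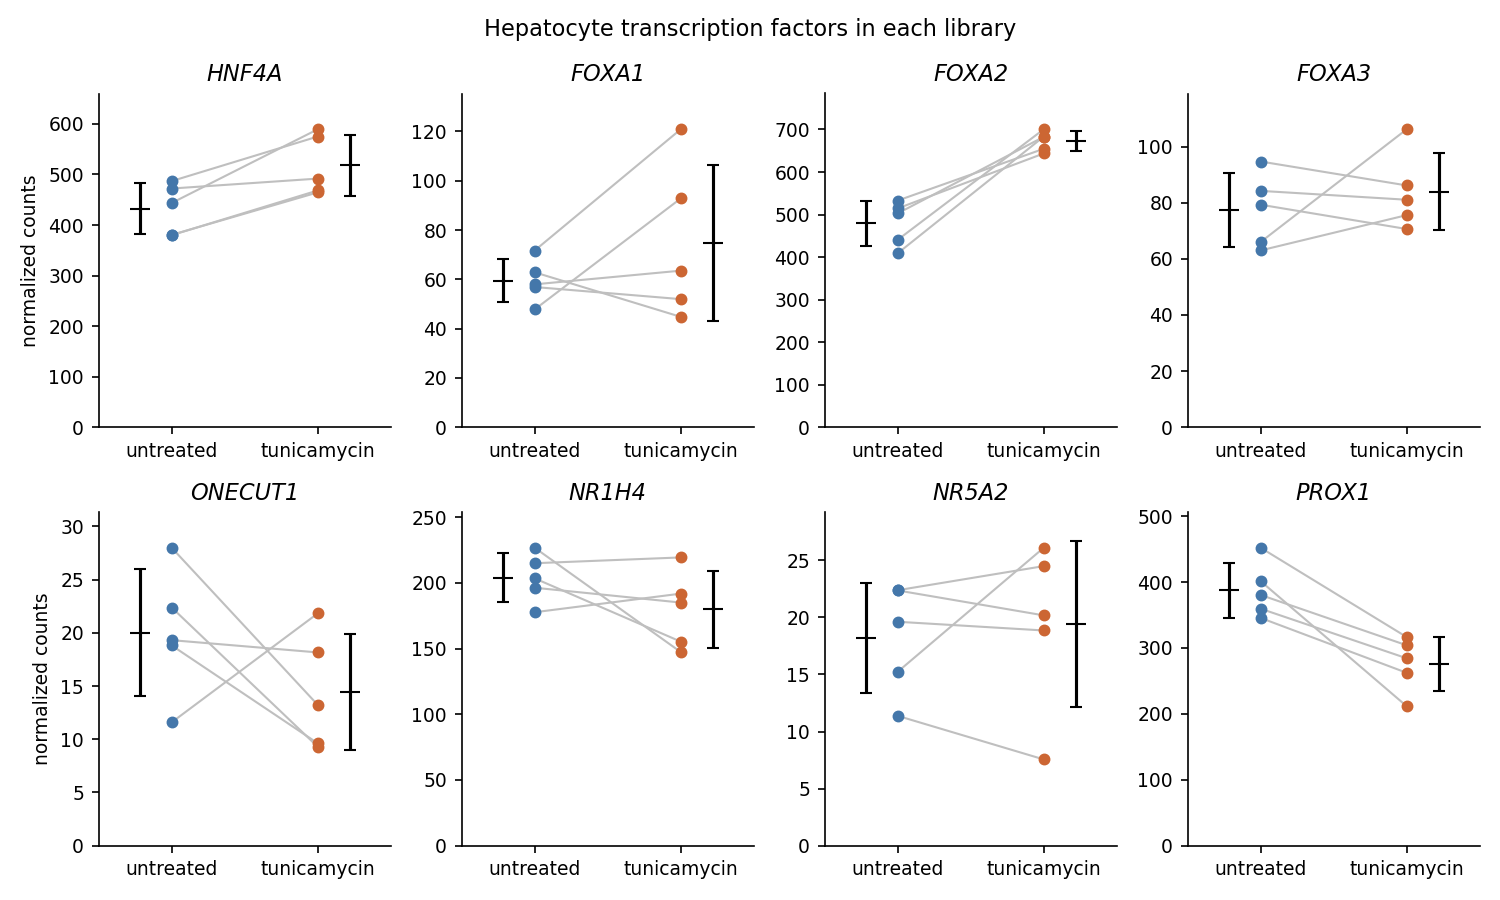
Normalized counts (vertical axes, starting at 0) of each of the 8 factors in the 5 untreated (blue) and 5 tunicamycin (orange) libraries; grey lines join libraries of the same replicate number, and black bars give the mean and SD. FOXA2 and PROX1 are the genes whose conditions do not overlap, and HNF4A rises along each of its 5 lines.

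The libraries held 2234682 to 5029864 counts. Tunicamycin replicates 5 and 4 had the fewest, 2234682 and 3567316, and replicate 4 also had the highest mitochondrial share (28.8%) and the lowest TMM scaling factor (0.892). That share was 18.3%, 21.5%, 21.3% and 24.6% in tunicamycin replicates 1, 2, 3 and 5. In untreated libraries it was 22.7% to 25.2%. The values below are normalized counts, which are counts divided by the TMM-scaled library size and multiplied by the mean of these sizes. The 18 hepatocyte marker genes chosen to check the cell type were all tested. Together they made up 113632 to 119671 normalized counts in untreated libraries and 83650 to 91733 with tunicamycin. ALB, serum albumin, had 11214 normalized counts in untreated cells.

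FOXA2 (ENSG00000125798, chromosome 20, 22580998 to 22585455 on the minus strand of GRCh38) had 409, 441, 533, 503 and 514 normalized counts in untreated replicates 1 to 5. With tunicamycin it had 683, 701, 655, 683 and 644. The lowest treated library was above the highest untreated one, and the treated libraries lay closer together. The mean rose from 479.8 ± 52.7 to 673 ± 23.2 (SD, n = 5 each), or by 0.49 ± 0.09 (standard error) on the log2 scale, with an adjusted p of 0.00028 by edgeR's quasi-likelihood test. The log2 ratio within replicate pairs was between 0.30 and 0.74, and it was positive in 5 of 5. No exon of another gene overlaps those of FOXA2 in GENCODE. Without tunicamycin replicates 4 and 5 together the log2 fold change was 0.51.

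Its forkhead relatives had fewer counts and did not pass the test. FOXA1 (ENSG00000129514, chromosome 14, 37589552 to 37596059) had 62.8, 58, 56.9, 71.7 and 47.8 normalized counts without treatment, in the order of replicates 1 to 5, and 44.8, 63.5, 52, 121 and 92.8 with tunicamycin. The high values of the treated group were those of replicates 4 and 5, the libraries with the fewest counts, whose part in the result was not tested. The log2 fold change was 0.28 (95% interval -0.20 to 0.75, adjusted p = 0.368), 0.03 without tunicamycin replicate 4 and -0.16 without replicates 4 and 5 of tunicamycin. Exons of TTC6 overlap those of FOXA1 on the opposite strand, and TTC6 itself fell (log2 fold change -0.87), so the counts of FOXA1 are uncertain if counting ignored the strand. The start sites of TTC6 and FOXA1 are 0.43 kb apart, while the reads come from 3′ ends, and the part of the overlap was not tested.

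FOXA3 (ENSG00000170608, chromosome 19, 45863989 to 45873797), the FOXA gene that comes on latest in liver development, had 94.7, 66, 63, 84.2 and 79.3 normalized counts in untreated replicates 1 to 5. With tunicamycin the values were 86.1, 106, 75.6, 81.1 and 70.6, within which most untreated values also fell. The log2 fold change was 0.13 (95% interval -0.19 to 0.45, adjusted p = 0.553), and FOXA3 was higher in 2 of 5 pairs.

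Whether the 3 FOXA genes changed unequally was tested on the ratio of their counts within each library, which does not depend on scaling. The log2 ratio of FOXA2 to FOXA3 moved from 2.63 ± 0.35 to 3.01 ± 0.18 (SD, n = 5 each; exact permutation test, two-sided p = 0.0635, adjusted p = 0.19 over 6 ratios), and that of FOXA1 to FOXA2 from -3.01 ± 0.30 to -3.26 ± 0.60 (exact permutation p = 0.405, adjusted p = 0.675). FOXA1 to FOXA3 differed by 0.13 (exact permutation p = 0.675). The change of FOXA2 was thus not shown to differ from those of the other FOXA genes. The smallest p these 5 against 5 libraries allow is 0.00794.

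HNF4A (ENSG00000101076, chromosome 20, 44355699 to 44432845) had 380.5, 379.9, 444, 472 and 487 normalized counts in untreated replicates 1 to 5. With tunicamycin it had 465, 468, 589, 492 and 575. Every treated library exceeded its own untreated partner, but the lowest treated values were below the highest untreated ones. The mean went from 432.6 ± 50.3 to 517.8 ± 59.9 (SD, n = 5 each), which is 0.26 on the log2 scale (95% interval 0.04 to 0.47, adjusted p = 0.0586 by edgeR's quasi-likelihood test). Adding the replicate number to the fit as a block left the log2 fold change at 0.26 with an adjusted p of 0.0165 in edgeR, or 0.0357 in DESeq2, and 2 of 8 factors were then called higher. The log2 ratios within pairs were 0.29, 0.30, 0.41, 0.06 and 0.24.

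Among the other nuclear receptors, NR1H4 (ENSG00000012504, chromosome 12, 100473708 to 100564414) had 196, 215, 178, 203 and 227 normalized counts without treatment, in the order of replicates 1 to 5, and 185, 219, 192, 155 and 147 with tunicamycin. The treated values of replicates 4 and 5 were the lowest of the 10, and the other 3 lay within the untreated range. The log2 fold change was -0.17 (95% interval -0.41 to 0.08, adjusted p = 0.299), and -0.03 without tunicamycin replicates 4 and 5. The log2 ratio of HNF4A to NR1H4 was higher with tunicamycin in 5 of 5 pairs and moved from 1.08 ± 0.20 to 1.53 ± 0.33 (SD, n = 5 each), with an exact permutation p of 0.0476 that became 0.19 over the 6 ratios.

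NR5A2 (ENSG00000116833, chromosome 1, 200027614 to 200177420) was near the lower end of what this depth resolves, with 8 to 29 counts per library. Its normalized counts were 22.4, 19.6, 11.4, 15.2 and 22.4 in untreated replicates 1 to 5 and 24.5, 18.9, 7.56, 26.1 and 20.2 with tunicamycin. The log2 fold change was 0.08 with a 95% interval from -0.57 to 0.73 (adjusted p = 0.868), so changes within that interval were not excluded. The ratios of HNF4A and of NR1H4 to NR5A2 differed between conditions by 0.22 and -0.23 on the log2 scale (exact permutation p = 0.675 and 0.579).

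ONECUT1 (ENSG00000169856, chromosome 15, 52755053 to 52791078) was as sparse, with 7 to 32 counts per library. It had 22.4, 11.6, 28, 18.8 and 19.3 normalized counts without treatment, in the order of replicates 1 to 5, and 9.29, 21.8, 13.2, 9.62 and 18.2 with tunicamycin. It was lower in all pairs but 1, yet the conditions overlapped widely, and the log2 fold change of -0.49 had a 95% interval from -1.14 to 0.15 (adjusted p = 0.232). Its estimate was about that of PROX1, but its standard error was 0.31 against 0.11.

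PROX1 (ENSG00000117707, chromosome 1, 213983181 to 214041510) had 380.5, 452, 360, 401 and 346 normalized counts without treatment, in the order of replicates 1 to 5, and 304, 317, 284, 212 and 262 with tunicamycin. Each treated library was below each untreated one. The mean fell from 387.8 ± 41.7 to 276 ± 41.4 (SD, n = 5 each), which is -0.48 ± 0.11 (standard error) on the log2 scale, with an adjusted p of 0.00226 by edgeR's quasi-likelihood test and log2 ratios of -0.92 to -0.32 within the 5 pairs. The largest decrease was that of replicate 4. Without tunicamycin replicates 4 and 5 the log2 fold change was -0.36 (adjusted p = 0.0207).

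**Figure D2:**
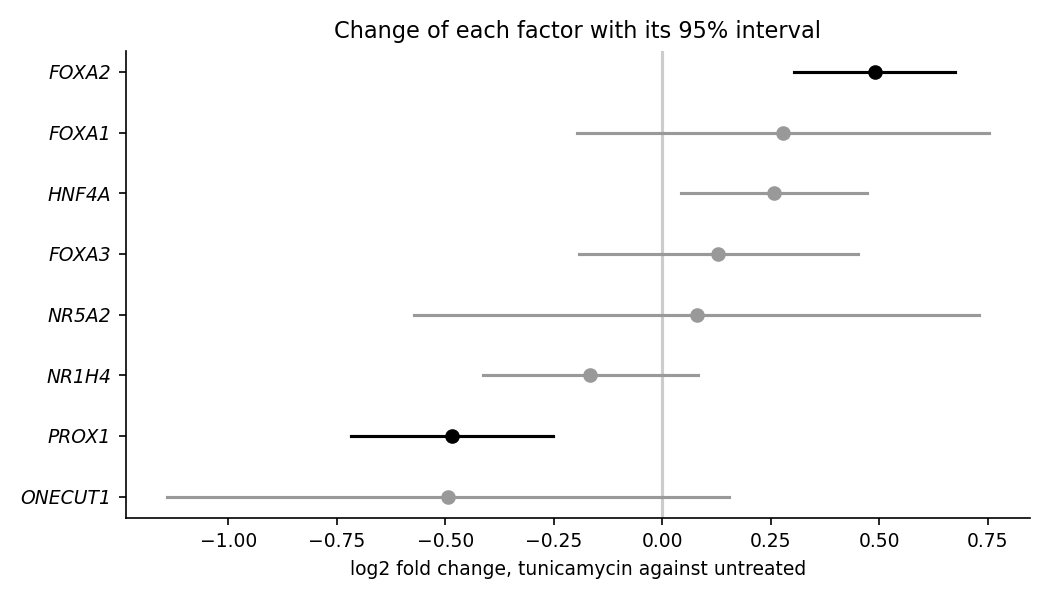
Log2 fold change of each factor (points) with its 95% interval (lines) from edgeR's quasi-likelihood fit; black marks an adjusted p under 0.05 and grey the rest. FOXA2 at 0.49 and PROX1 at -0.48 are black, and the intervals of ONECUT1 and NR5A2 are the widest.

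The order of the 8 factors in untreated cells was FOXA2, HNF4A, PROX1, NR1H4, FOXA3, FOXA1, ONECUT1 and NR5A2, on the scale of normalized 3′ counts, where a transcript gives about 1 fragment whatever its length, so no division by length was made. The first 3 overlapped in their ranges, as did FOXA3 with FOXA1 and ONECUT1 with NR5A2, whereas NR1H4 (178 to 227 normalized counts) overlapped none of the others. With tunicamycin FOXA2 (644 to 701) lay above HNF4A (465 to 589) without overlap, and PROX1 (212 to 317) overlapped NR1H4 (147 to 219).

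LINC00261, a noncoding RNA gene next to FOXA2, rose with it. It lies downstream on the same strand of chromosome 20 (22547663 to 22578642), with 2.36 kb between the genes and 6.81 kb between their start sites. It had 244, 291, 360, 409 and 332 normalized counts without treatment, in the order of replicates 1 to 5, and 453, 609, 589, 607 and 704 with tunicamycin, without overlap. On the log2 scale it rose by 0.85 ± 0.13 (standard error), with an adjusted p of 5.29e-05 by edgeR's quasi-likelihood test. PROX1-AS1, whose exons overlap those of PROX1 on the opposite strand, had 11.8 ± 4.82 and 10.6 ± 5.79 normalized counts and did not pass the test (log2 fold change -0.15, adjusted p = 0.817). The counts of PROX1 and PROX1-AS1 are uncertain if counting ignored the strand. The 2 genes share only positions 213983181 to 213988508, at the start of PROX1, whereas PROX1 ends at 214041510 and the reads come from 3′ ends. GATA6-AS1 had 3.93 ± 2.64 normalized counts in untreated cells and was not called, and HNF4A-AS1 was too low to be tested. The median of the 4 tested neighbours was -0.46, with 1 higher and 1 lower, 25% each, against 17.6% and 16.6% of all genes tested.

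**Figure D3:**
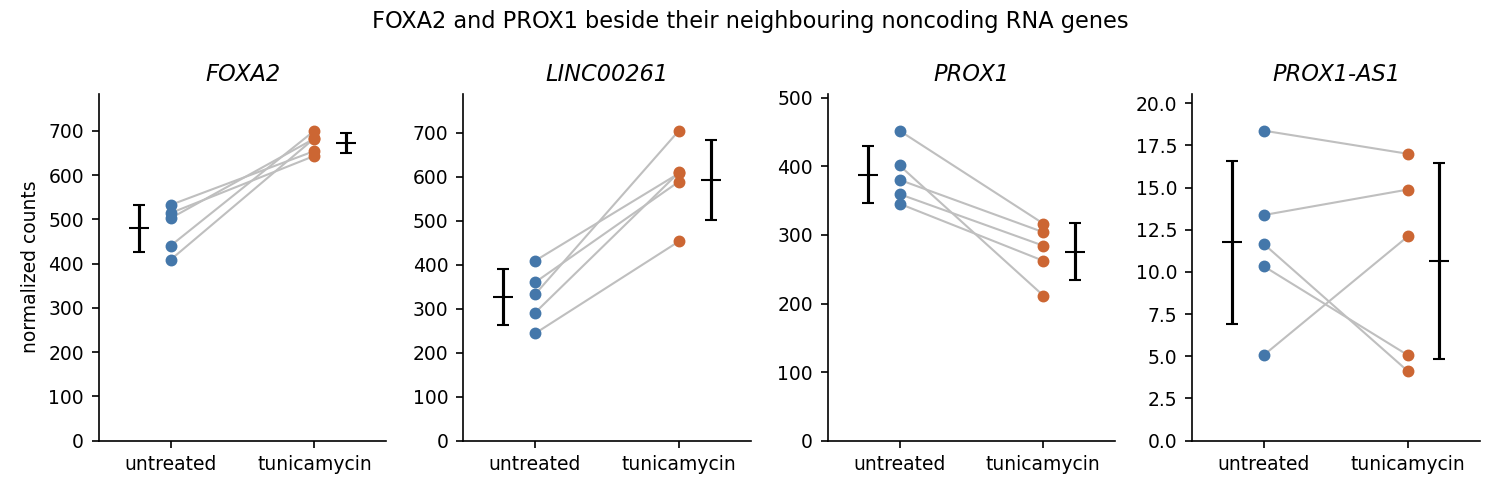
Normalized counts (vertical axes, starting at 0) of FOXA2, LINC00261, PROX1 and PROX1-AS1 in each untreated (blue) and tunicamycin (orange) library; grey lines join the same replicate number, and black bars give mean and SD. FOXA2 and LINC00261 both rise in 5 of 5 pairs, while PROX1-AS1 spans 4.12 to 18.4 in both conditions together.

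The promoter of LINC00261 is shown because it is the neighbour that moved with FOXA2. RefSeq's promoters (GRCh38.p14) cover 250 bases before to 50 after the start of a gene, and 6 of the 8 factors have an entry, which leaves out FOXA2 and PROX1. They were searched on both strands for 8 sequences, namely the forkhead sequence TGTTTAC, the HNF4A sequence CAAAGTCCA, the NR5A2 sequence TCAAGGTCA, the ONECUT sequence ATCGAT, the C/EBP-ATF composite sequence TGATGCAAT, the cyclic AMP response element TGACGTCA, the sequence TGACGTGG bound by XBP1 and ATF6, and the ER stress response element, in which CCAAT and CCACG stand 9 bases apart. None of the 6 factors' promoters held any of the 8, which says only that these letters are not in the window. Just 1 window per gene was searched, so further promoters, such as the alternative ones of HNF4A, were not covered. The NR1H4 window (100503110 to 100503409) lies inside the gene, which starts at 100473708 in GENCODE. The windows of FOXA1 (37595200 to 37595499), FOXA3 (45864076 to 45864375) and ONECUT1 (52790287 to 52790586) also lie wholly inside their genes. Only those of HNF4A and NR5A2 reach bases before the gene. The LINC00261 promoter (chr20:22578593-22578892, minus strand) held 3, printed in capitals. The forkhead sequence starts at -237 on the reverse strand, the XBP1 and ATF6 sequence at -180 on the reverse strand, and the ONECUT sequence, a palindrome, at -62, with bases counted from the start site.
LINC00261: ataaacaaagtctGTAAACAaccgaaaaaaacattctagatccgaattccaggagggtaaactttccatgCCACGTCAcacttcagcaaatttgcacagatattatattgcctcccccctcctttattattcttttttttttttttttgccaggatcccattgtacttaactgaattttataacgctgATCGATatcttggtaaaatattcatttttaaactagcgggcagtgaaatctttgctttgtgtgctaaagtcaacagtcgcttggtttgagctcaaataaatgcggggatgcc
Of 35116 promoters, 3.42% held the forkhead sequence, 0.729% the XBP1 and ATF6 sequence and 0.763% the ONECUT sequence, and a match is not evidence of binding.

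The factors work with other liver transcription factors and nuclear receptors. Of 26 of these that were tested, 3 were higher (11.5%) and 11 lower (42.3%) with tunicamycin in edgeR's quasi-likelihood test. Over all genes tested the shares were 17.6% and 16.6%. The median log2 fold change of the 26 was -0.24. The largest decrease was that of CREB3L3, an ER-bound factor of fasting and lipid genes, from 82.3 ± 13.6 to 22.8 ± 6.04 normalized counts (SD, n = 5 each). RXRA, the partner that NR1H4 needs to bind most of its sites, fell from 419 ± 42.6 to 241.9 ± 33.6, a log2 fold change of -0.78 (adjusted p = 1.49e-05). Its paralog RXRB had -0.73. The increases were those of PPARD (1.07), ESRRA (1.06) and NR0B2. NR0B2 encodes SHP, the corepressor that NR1H4 induces and that holds down HNF4A and NR5A2, and it rose from 183 ± 21.4 to 277 ± 34 normalized counts (log2 fold change 0.60, adjusted p = 0.000374). Another gene's exons overlap on the opposite strand for RXRB (SLC39A7) and ESRRA (TRMT112).

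Of 23 tested coactivators and corepressors that bind these receptors, 2 were higher and 2 lower, below the background shares, and the median was -0.05. NCOA1, a coactivator, rose from 93.6 ± 7.14 to 136 ± 13.3 normalized counts, and PPARGC1B, which has too few counts for the naming rule, had a log2 fold change of 1.09. NRIP1, a corepressor, was called lower (-0.30). No coregulator was called lower in the fits without untreated replicate 2, tunicamycin replicate 3 or tunicamycin replicate 5. PPARGC1A, a partner of HNF4A in gluconeogenesis, had 45.0 ± 14.5 and 50.3 ± 13.4 normalized counts and was not called. Among 16 tested forkhead and cut genes outside the 8, FOXK2 (1.01) and FOXJ3 (0.43) were higher and FOXM1 (-0.46) and FOXO3 (-0.32) lower. That is 12.5% in each direction, near the shares of all genes tested (17.6% and 16.6%), and the median was 0.00069. ONECUT2, the relative of ONECUT1, had 348 ± 28.9 and 296 ± 70.3 normalized counts and was not called.

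Of 24 textbook targets of HNF4A that were tested, 13 were lower (54.2%) and 1 higher (4.17%), against 16.6% and 17.6% of all genes tested. The median log2 fold change was -0.54. Among those averaging at least 20 normalized counts, the largest decreases were those of FABP1 (-1.38), a fatty acid binding protein, and of the apolipoproteins APOC3 (-1.28) and APOA4 (-1.16). APOC3 went from 618 ± 26 to 255 ± 17.1 normalized counts (SD, n = 5 each). The gene that rose was F7, clotting factor VII, from 149 ± 8.46 to 221 ± 28.1 normalized counts (log2 fold change 0.57, adjusted p = 0.000409). SERPINA1, PROC and MTTP were not called. APOB had 32551 ± 1507 normalized counts in untreated cells and fell by 0.78 on the log2 scale.

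Of 19 tested targets of FOXA factors, 8 were lower (42.1%) and 2 higher (10.5%), against 16.6% and 17.6% of all genes tested. The median was -0.16. IGFBP1, the insulin-like growth factor binding protein 1, rose from 137 ± 23 to 2338 ± 296 normalized counts (log2 fold change 4.09, adjusted p = 3.37e-14), and CDH1, E-cadherin, had 0.50. TTR (-1.02), LIPC (-0.98) and APOA1 (-0.91), which encode transthyretin, hepatic lipase and apolipoprotein A-I, fell. ALB (0.04) and AFP (-0.16), the albumin genes on which FOXA binding was worked out, were not called. The target lists share genes, such as APOA1, TTR and NR0B2, so their counts are not independent.

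For NR1H4, 7 of 16 tested genes that bile acids raise through it were lower (43.8%) and 1, NR0B2, was higher (6.25%). Over all genes tested 16.6% were lower and 17.6% higher, and the median of the 16 was -0.32. FGA (-1.23) and FGB (-0.76), fibrinogen chains, and SLC27A5 (-0.71), the bile acid CoA ligase, fell most among those with at least 20 normalized counts, and exons of ZNF446 overlap those of SLC27A5 on the opposite strand. Among the genes of this list too low to be tested, UGT2B4 and SLC51B had 0 counts in each untreated library. Their means with tunicamycin were 2.86 and 2.09 normalized counts. FGF19 went from 0.704 to 0.275, and APOC2 had 0 counts throughout. The bile salt pump gene ABCB11 was at 0 counts throughout. For a library taken alone this leaves room for about 3 counts, and for fewer per library over all libraries together. Of 14 tested genes of bile acid synthesis and uptake, 4 were lower (28.6%) and 3 higher (21.4%), against 16.6% and 17.6% of all genes tested. The share called higher was thus near that of all genes, and the median was -0.07. HSD3B7, which modifies the sterol ring early in the pathway, fell from 140.4 ± 16 to 44.2 ± 10 normalized counts, and CYP27A1 had -0.82. CYP8B1, which sets cholic acid output, was called lower with 9.43 ± 4.75 and 1.15 ± 1.39 normalized counts and lies under the minimum of the naming rule. AKR1D1 (0.42), HSD17B4 (0.46) and CYP39A1 (1.78, with few counts) were higher, and without tunicamycin replicates 4 and 5 the genes of this list called higher were 1. CYP7A1, the rate-limiting enzyme of bile acid synthesis, had 7.33 ± 5.75 and 4.69 ± 3.18 normalized counts and was not called. Of 11 tested NR5A2 targets, 3 were lower (27.3%), among them APOA1 and CYP8B1, and 1, NR0B2, higher (9.09%), with a median of -0.55. Under the replicate block 2 were higher, since HNF4A is among them.

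**Figure D4:**
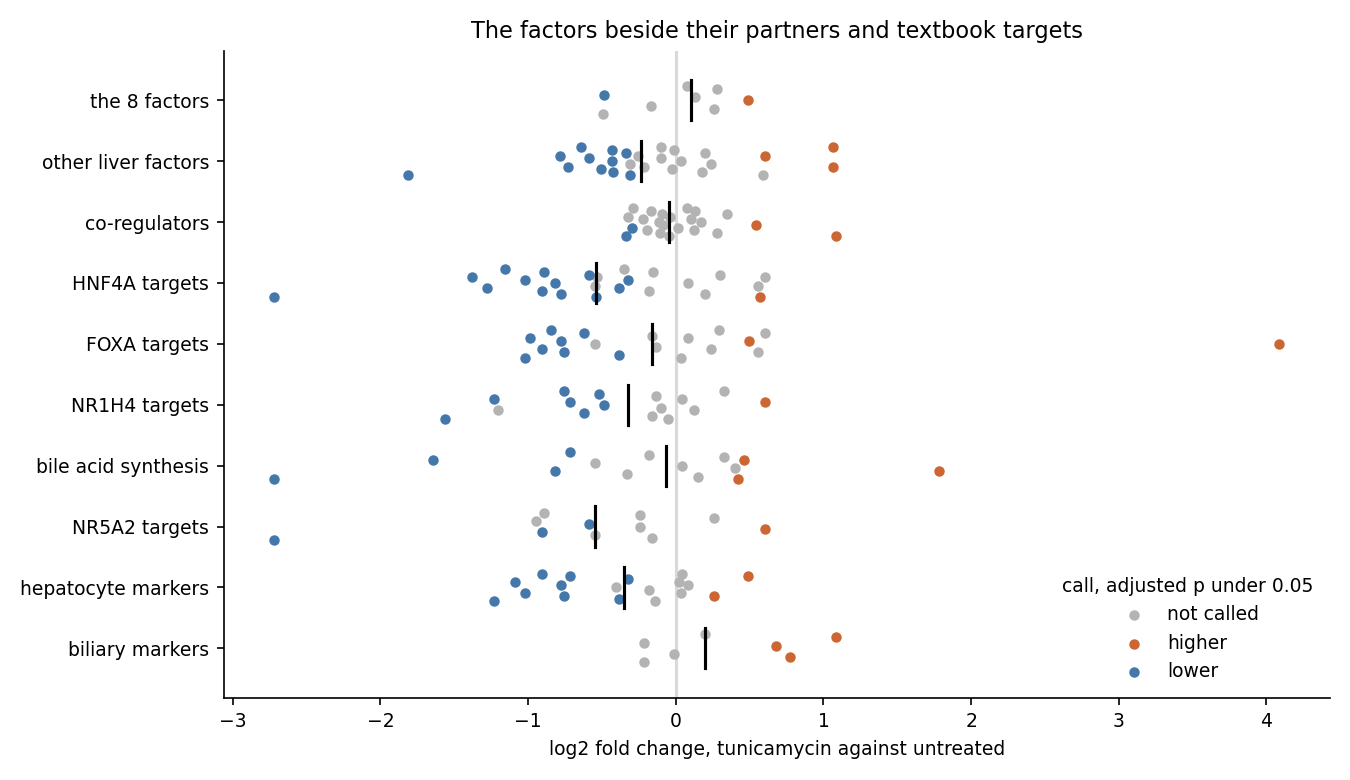
Log2 fold change (horizontal axis) of each tested gene of the 8 factors and of 9 lists, 1 row a list; orange marks genes called higher, blue lower and grey not called, the black bar is the list's median, and height within a row only spreads the points. The factors lie between -0.49 and 0.49, while 13 of 24 HNF4A targets are blue, against 16.6% of all genes tested.

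Cell type markers moved as follows, where 16.6% of all genes tested were lower and 17.6% higher. Of the 18 hepatocyte marker genes, 9 were lower (50%) and 2 higher (11.1%), with a median of -0.35. FGA (-1.23), HP (-1.09) and TTR (-1.02) fell most among them, and KRT8 (0.49) and KRT18 (0.26), keratins whose exons overlap each other on opposite strands, rose. Of 8 tested fetal liver genes, GPC3 (-0.52), IGF2 (-0.40) and IGF2BP1 (-0.38) were lower (37.5%) and none was higher. The median of the fetal liver genes was -0.23, and AFP was not called. Of 7 tested biliary genes, SLC4A2 (1.09), JAG1 (0.78) and SPP1 (0.68) were higher (42.9%) and 0 lower, with a median of 0.20. Their summed level was 4744 to 5617 normalized counts in untreated and 6536 to 7970 in tunicamycin libraries, most of it SPP1, whereas the defining bile duct keratins were close to absent, with means of 0 and 0.764 normalized counts for KRT7 and 2.08 and 1.16 for KRT19. Of 9 tested mesenchymal genes, SPARC (-0.86), CDH2 (-0.35) and S100A4 (-2.29, with few counts) were lower (33.3%) and 0 higher (median -0.19). VIM, ZEB2, TWIST1 and SNAI2 had 0 counts in each library, with the limit given for ABCB11. Of 5 tested intestinal genes, VIL1 (-0.49) was lower and FABP2 (3.21, with few counts) higher (median 0.07). That is 20% in each direction, near the shares of all genes, and SI and MUC2 had 0 counts. The part of other cell states in the changes of FOXA2 and PROX1 was not tested.

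The genes whose levels over the 10 libraries were most like each factor are given as a description, since the points share the treatment and the libraries. Among 7691 or 7692 candidates with at least 50 normalized counts on average, the highest Pearson correlations of log2 CPM with FOXA2 were those of the amino acid transporters SLC7A11 (0.993) and SLC7A1 (0.984), and with PROX1 those of PURA (0.964) and DLGAP5 (0.961). HNF4A was most like TSPYL4 (0.966) and NUDCD2 (0.961), FOXA1 was close to HNRNPLL (0.929), and NR1H4 was most like TNK2 (0.935) and DIP2A (0.905). FOXA3 was most like SLC27A4 (0.832) and ACTR10 (0.803). For the sparse factors the nearest genes were NSL1 (0.872) and XPNPEP3 (0.853) for ONECUT1 and PUS3 (0.909) and PRRC2A (0.907) for NR5A2.

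**Figure D5:**
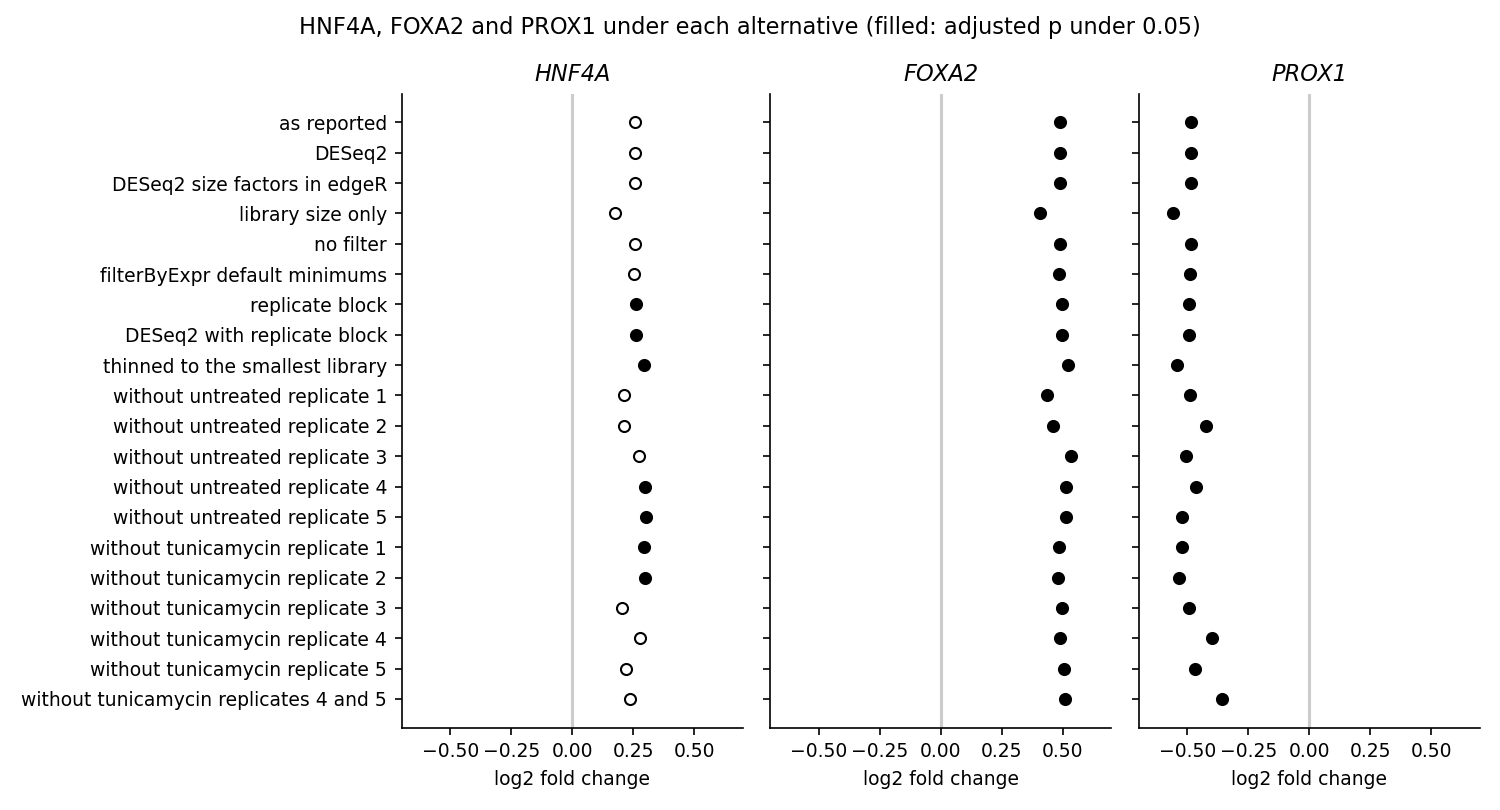
Log2 fold change of HNF4A, FOXA2 and PROX1 (horizontal axes) in the fit as reported and under each alternative (rows); filled points have an adjusted p under 0.05. FOXA2 and PROX1 are filled in each row, and HNF4A changes between open and filled while staying between 0.17 and 0.30.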

How the data were processed

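Total RNA of 10 HepG2 libraries was sequenced from 3′ ends (QuantSeq FWD). The authors ran the nf-core RNA-Seq pipeline with its defaults on hg19 with Ensembl transcripts and deposited raw counts per gene for each library, unfiltered and not pooled. The aligner, counter and strand setting are not given in the sources used here. All sample columns were used and matched by library name.

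Genes were filtered with filterByExpr (minimum count 2, total 10), scaled by TMM and tested on condition alone by the quasi-likelihood method of edgeR 4.0.16 in R 4.3.3, with Benjamini-Hochberg adjustment over all genes at 0.05. The standard error is the absolute log2 fold change over the square root of F. Count ratios (pseudocount 0.5) used exact two-sided permutation tests. The edgeR test was checked on simulated counts, and the permutation test on fixed values with a known p. The series text places the 5 replicate experiments on separate days, so the replicate number was taken to pair the libraries, although no label gives the day of a library. Their deviations from the group means correlated at 0.36, 0.0197, 0.0764, 0.162 and 0.137 over 9707 genes for replicates 1 to 5.

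The members and lists were chosen with earlier results of these data known, so no test over a list was run. Of 259 list entries, 255 matched a gene by symbol and H19, CD24, FOXA3-AS1 and NR5A2-AS1 did not and are not analysed here. The text names the 8 factors, up to 3 higher and 3 lower genes per list with the largest change among called genes averaging 20 or more normalized counts, every neighbouring noncoding RNA, and the 2 genes most like each factor. Other genes named were chosen after their values were seen. Some genes that the rule names, and an overlap of exons, are not reported here. Alternatives were DESeq2 1.42.0, other scalings and filters, the replicate block, thinning and left-out libraries. Leaving out tunicamycin replicates 4 and 5 together was chosen after seeing the data. Positions and overlaps come from GRCh38 with GENCODE v44 by Ensembl identifier, and promoters from RefSeq, while the counts were made on hg19. Counting error limits the factors with few counts.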

Additional observations from a re-analysis of the deposited data

Results flagged for a closer look

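Over 34 groups of 5 values (normalized counts of the 8 factors, their 6 ratios and 3 library measures), 1 value stood apart from the remaining 4, where chance gives about 1.7. It was the log2 ratio of HNF4A to NR5A2 in tunicamycin replicate 3, at 6.20 against 4.20 to 4.77 in the other 4, where NR5A2 had 8 counts. The cause was not tested.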

How the results depend on the processing

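The calls of FOXA2 and PROX1 held in each of the 8 alternatives, in each of the 10 fits that left out a library and without tunicamycin replicates 4 and 5, with log2 fold changes of 0.41 to 0.54 and -0.56 to -0.36. PROX1 was called lower in each of these, as the single factor. The factors called higher were 2 under the replicate block in edgeR, 2 under that block in DESeq2, 2 after thinning and 1 to 2 with a library left out, the second being HNF4A. HNF4A was called without untreated replicates 4 or 5 and without tunicamycin replicates 1 or 2, and its adjusted p ranged from 0.0165 to 0.223, the highest with library size as the only scaling. Other calls of the factors did not change with the replicate block. The genes called in all ranged from 3477 to 4811, against 4353, and 40.8% of called genes were higher with library size only, against 51.4%. The log2 ratio of HNF4A to NR1H4 moved by 0.34 to 0.56 over left-out libraries, with an adjusted p of 0.0476 without tunicamycin replicate 2 (exact permutation). Over the same fits the ranges were -0.44 to -0.08 for FOXA1 to FOXA2, -0.08 to 0.30 for FOXA1 to FOXA3, 0.24 to 0.48 for FOXA2 to FOXA3, -0.13 to 0.39 for HNF4A to NR5A2 and -0.55 to -0.04 for NR1H4 to NR5A2. Sign flips over the 5 pairs, a paired test that cannot pass the threshold, gave adjusted p-values of 0.375 (exact) for the ratio of HNF4A to NR1H4 and for that of FOXA2 to FOXA3. FOXA1, FOXA3 and NR5A2 changed sign under some alternatives without a call.

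Among list counts, those that moved by over 1.5 times were small. The replicate block gave 2 HNF4A targets and 2 NR5A2 targets higher, against 1 each. With DESeq2 and the block 1 coregulator, 1 hepatocyte marker and 1 forkhead or cut gene were higher, against 2 each, and 2 NR5A2 targets. DESeq2 alone left 1 forkhead or cut gene lower, against 2. Library size only gave 1 hepatocyte marker and 1 forkhead or cut gene higher, against 2 each, and 1 biliary gene lower, against 0. With no filter, 3 NR1H4 targets were higher, against 1, 1 biliary gene was lower, against 0, 2 intestinal genes were lower, against 1, and 1 forkhead or cut gene was lower, against 2. The default filter left 0 intestinal genes higher, against 1. Thinning gave 1 coregulator higher, against 2, and 2 NR5A2 targets, against 1. Without tunicamycin replicates 4 and 5, bile acid genes higher were 1, against 3, neighbouring noncoding RNAs lower 0, against 1, and coregulators higher and lower, hepatocyte markers higher and forkhead or cut genes lower 1, against 2 each. With single libraries left out, the lists whose counts moved were coregulators (1 to 3 higher, 0 to 2 lower), forkhead and cut genes (1 to 2 in each direction), NR1H4 targets (1 to 2 higher), hepatocyte markers (1 to 2 higher), NR5A2 targets (1 to 2 higher), biliary genes (0 to 2 lower) and intestinal genes (1 to 2 lower). The cause of these moves was not tested. Counts per library of 7 to 32 for ONECUT1 and 8 to 29 for NR5A2 limit what can be seen of these factors.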
